A study of Oryza sativa Japonica Group with 9 samples.

Results

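The 10 genes described here are 6 glutelin genes of rice (GluA1, GluA2, GluA3, GluB4, GluC and GluD1) and 4 genes for transcription factors of the endosperm (RISBZ1, RPBF, NAC20 and NAC26). They were taken by locus identifier from a table of 55986 gene models, and all 10 were found in it. RNA sequencing had been applied to developing grains (caryopses) of the japonica cultivar Nipponbare in 9 libraries. There were 3 libraries of GSK5-/- plants, edited in a GSK3-like protein kinase gene, 3 of ARF4-/- plants, edited in an auxin response factor gene, and 3 of wild type plants (WT). The sample labels give day 9 after flowering and the series text days 7 to 8, and which holds was not settled. The labels name no treatment, no editing construct and no number of independent lines. Nor do they say if replicates stem from different plants; the p-values below rest on the scatter among libraries, part or all of which may be technical.

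Glutelins are the main storage proteins of the rice grain. They are translated as precursors on the endoplasmic reticulum of the starchy endosperm, carried through the Golgi apparatus to storage vacuoles and cleaved there into an acidic and a basic subunit. Their promoters are known targets of RISBZ1, a bZIP factor that binds the GCN4 motif, and of RPBF, a DOF factor that binds the prolamin box; these factors are known to act together. NAC20 and NAC26 are NAC factors known to activate storage protein and starch genes redundantly. The question put to the data was whether the regulators are present where storage transcripts are low.

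The loci are LOC_Os01g55690 (GluA1), LOC_Os10g26060 (GluA2), LOC_Os03g31360 (GluA3), LOC_Os02g16830 (GluB4), LOC_Os02g25640 (GluC) and LOC_Os02g15090 (GluD1) for the glutelins. The regulators are LOC_Os07g08420 (RISBZ1), LOC_Os02g15350 (RPBF), LOC_Os01g01470 (NAC20) and LOC_Os01g29840 (NAC26). Levels are given as FPKM, fragments scaled to gene model length and library total, as deposited by the authors. The names of all 6 glutelin genes were found in RefSeq on the chromosome that the identifier gives. RefSeq does not hold these identifiers, and the 4 regulator names were not matched there, so the pairing of names and loci is as given with the gene set. Glutelin genes are close copies, and how shared fragments were counted is not given in the sources used here, so the level of any single copy is uncertain. In these bulk libraries fewer cells of a type and less RNA per cell cannot be told apart.

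The locus taken as the edited GSK5 gene, LOC_Os03g62500, had 31.1, 33.99 and 31.55 FPKM in GSK5 libraries and 32.07, 39.33 and 47.96 in WT libraries, which overlapped. The locus taken as ARF4, LOC_Os01g70270, had 54.21, 49.52 and 47.61 FPKM in ARF4 libraries and 91.82, 92.48 and 67.58 in WT libraries, with no overlap. Both loci were taken by name only, and an edit need not change the level of a transcript.

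Glutelin transcripts were scarce in every library. The 6 glutelins together reached 3.84 to 4.28 FPKM in GSK5 libraries, 11.26 to 14.97 in ARF4 libraries and 3.09 to 4.52 in WT libraries. This was at most 0.00255% of the summed FPKM of a library. Most of what was present in GSK5 and WT came from GluA2. Without it the other 5 glutelins summed to 0.41 to 0.71 FPKM in GSK5, 6.46 to 11.64 in ARF4 and 0.13 to 0.48 in WT.

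The labelled tissue was set against genes of the starchy endosperm, because these are the cells that make glutelins. GBSSI, the granule-bound starch synthase that makes amylose, had 1.36 to 4.16 FPKM in GSK5, 0.42 to 1.2 in ARF4 and 0.22 to 0.66 in WT. NF-YB1, an endosperm transcription factor, reached at most 0.48 FPKM in any library. The loci entered as BT1, an ADP-glucose transporter, and SSIIa, a starch synthase, reached at most 0.22 and 0.92 FPKM. These 4 were singled out after their values were seen. Other starch genes were abundant, such as SSI, a starch synthase, at 66.1 ± 3.42 FPKM in GSK5, 45.8 ± 13 in ARF4 and 57.8 ± 23.3 in WT, and the locus entered as BEI, a starch branching enzyme, at 79.8 ± 5.83 FPKM in GSK5, 34.2 ± 8.01 in ARF4 and 55.7 ± 34.3 in WT (SD, n = 3 each). The endosperm list was thus mixed in grain labelled as caryopsis: of its 11 starch genes 8 were at or above 1 FPKM in every library, and GBSSI, SSIIa and BT1 were not. The 5 green pericarp genes listed for photosynthesis summed to 1087 to 1269 FPKM in GSK5, 1295 to 3040 in ARF4 and 1186 to 1991 in WT.

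**Figure D1:**
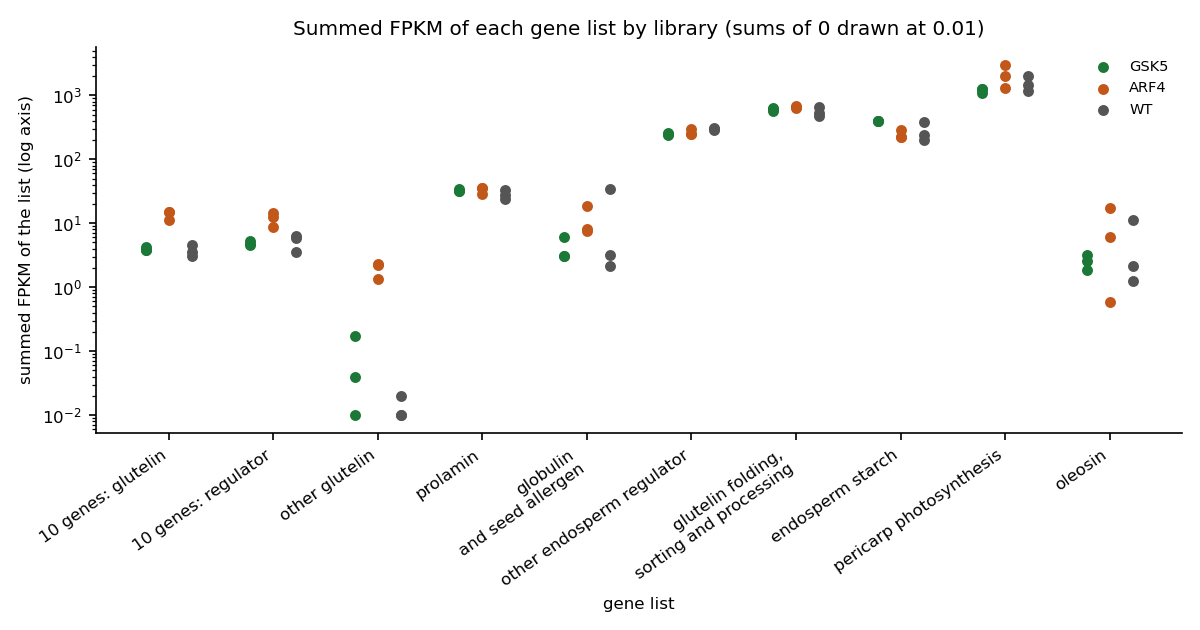
Summed FPKM of each gene list (log axis) in the 9 libraries, each point 1 library, with sums of 0 drawn at 0.01. The 6 glutelins and their 4 regulators lie between 3.09 and 14.97 FPKM, and the 5 photosynthesis genes between 1087 and 3040.

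GluA1, a type A glutelin, had the widest range of the 6. It stood at 0.55, 0.39 and 0.57 FPKM in GSK5 replicates 1, 2 and 3, at 9.61, 4.86 and 9.73 in ARF4 and at 0.11, 0.41 and 0.46 in WT. All 3 ARF4 libraries lay above all other libraries, while GSK5 and WT overlapped. Of all gene models 44.4% had a higher mean than GluA1 in GSK5, 24.4% in ARF4 and 44.7% in WT.

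GluA2, a close relative of GluA1, was the steadiest. It had 3.57, 3.43 and 3.28 FPKM in GSK5, 4.71, 4.8 and 3.33 in ARF4 and 2.96, 3.06 and 4.04 in WT. The 3 groups overlapped. In GSK5 and in WT it was the most abundant of the 6, and in ARF4 it came after GluA1, with 4.28 ± 0.824 FPKM for GluA2 and 8.07 ± 2.78 for GluA1 (SD, n = 3).

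The other 4 glutelins were below 1 FPKM in every library. GluA3, the remaining type A gene, had 0.07, 0.02 and 0 FPKM in GSK5, 0.27, 0.46 and 0.58 in ARF4 and 0, 0.02 and 0.02 in WT. GluC had 0.02, 0 and 0 FPKM in GSK5, 0.21, 0.53 and 0.72 in ARF4 and 0.02, 0.02 and 0 in WT. In both genes every ARF4 library lay above every GSK5 and WT library.

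GluB4, a type B glutelin, had 0.07 FPKM in GSK5 replicate 1 and was listed at 0 in the other 2 GSK5 libraries. Its ARF4 values were 0.13, 0.54 and 0.4, and it was listed at 0 in all 3 WT libraries. GluD1 was listed at 0 in all GSK5 and WT libraries and in ARF4 replicate 1, and had 0.07 and 0.21 FPKM in ARF4 replicates 2 and 3. Within ARF4 the mean levels of GluA3, GluB4 and GluC, 0.437 ± 0.156, 0.357 ± 0.208 and 0.487 ± 0.258 FPKM, did not differ beyond their SDs.

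RISBZ1 was the one regulator above 1 FPKM in every library. It had 3.86, 3.7 and 4.32 FPKM in GSK5, 10.04, 6.8 and 11.58 in ARF4 and 6.36, 5.72 and 3.37 in WT. Every ARF4 library lay above every library of the other groups, although ARF4 replicate 2 exceeded WT replicate 1 by little, and after median-of-ratios scaling or quantile normalization ARF4 and WT overlapped. GSK5 and WT overlapped.

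RPBF had 0.68, 0.36 and 0.48 FPKM in GSK5 and 2.44, 1.43 and 2.58 in ARF4. In WT it was listed at 0 in replicates 1 and 2 and had 0.08 FPKM in replicate 3. The 3 groups did not overlap, with ARF4 above GSK5 and GSK5 above WT.

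NAC20 was the one gene of the 10 whose mean was highest in GSK5. It had 0.15, 0.46 and 0.51 FPKM in GSK5, 0.14, 0.15 and 0.24 in ARF4 and 0, 0.07 and 0.04 in WT. GSK5 and ARF4 overlapped, and WT lay below both, though not after quantile normalization. NAC26 had 0.02, 0.04 and 0.03 FPKM in GSK5 and 0.04, 0.21 and 0.02 in ARF4, and was listed at 0 in all WT libraries; GSK5 and ARF4 overlapped.

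**Figure D2:**
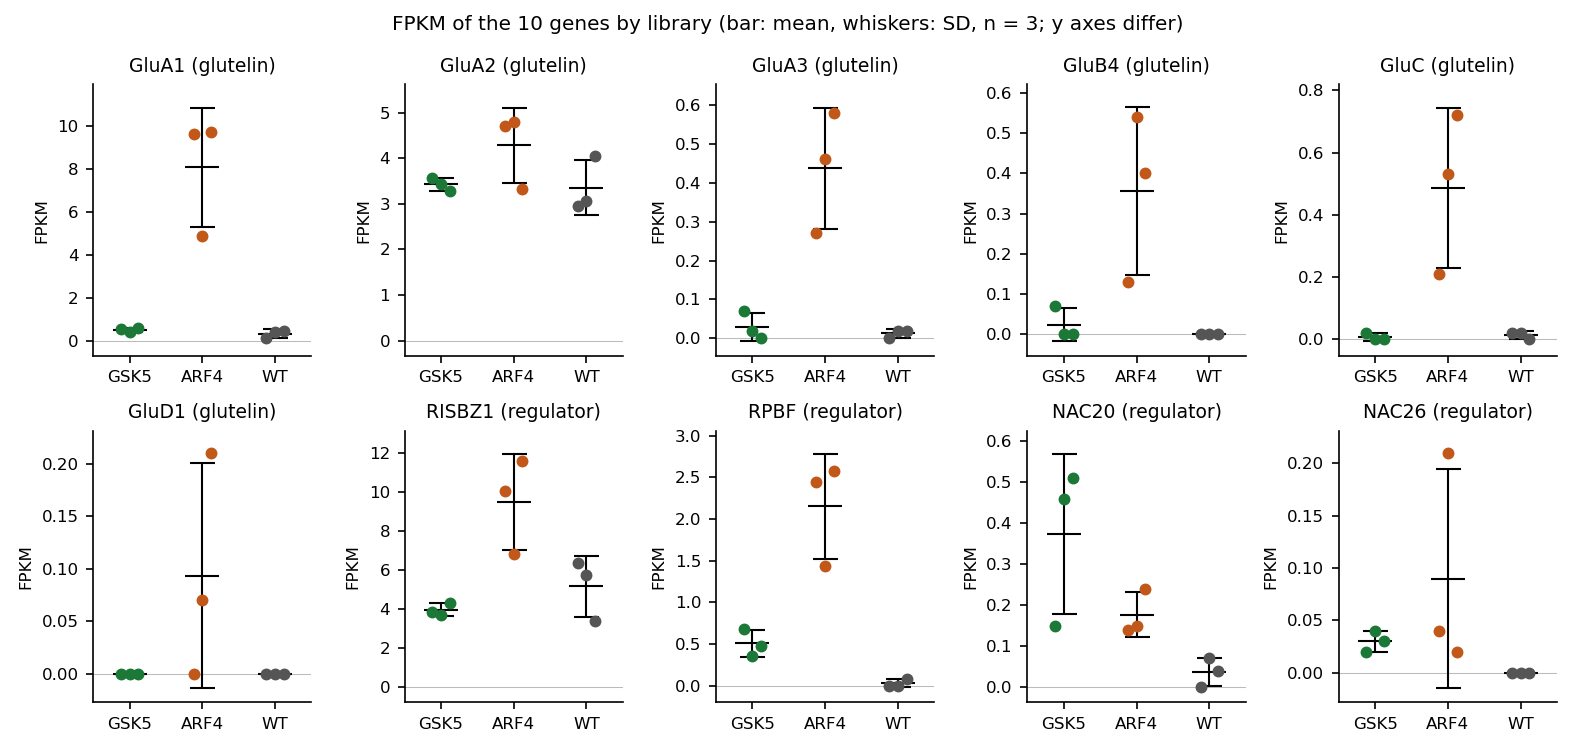
FPKM of each of the 10 genes in the 3 libraries of each group, with the mean and SD (n = 3); y axes differ between genes. GluA1 reaches 9.73 FPKM in ARF4 and at most 0.57 elsewhere, and RISBZ1 is between 3.37 and 11.58 in all libraries.

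RISBZ1 was present in all libraries of the 2 groups low in glutelin, at 3.7 to 4.32 FPKM in GSK5 and 3.37 to 6.36 in WT. RPBF and NAC20 had 0.15 to 0.68 FPKM in GSK5 and at most 0.08 in WT. NAC26 had 0.02 to 0.04 FPKM in GSK5, values that rest on very few fragments, and was listed at 0 in WT. All 4 regulators were above 0 in each GSK5 library, in which 1, 3 and 4 of the 6 glutelins were listed at 0 (replicates 1, 2 and 3). In WT, 3, 2 and 1 of the 4 regulators were themselves listed at 0, and 3, 2 and 3 of the glutelins. In ARF4 no regulator was listed at 0 in any library, and GluD1 in replicate 1 was the single glutelin at 0.

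RISBZ1 made up most of the regulator sum. The 4 regulators summed to 4.71, 4.56 and 5.34 FPKM in GSK5, 12.66, 8.59 and 14.42 in ARF4 and 6.36, 5.79 and 3.49 in WT. Without RISBZ1 the other 3 summed to 0.85 to 1.02 FPKM in GSK5, 1.79 to 2.84 in ARF4 and 0 to 0.12 in WT, with no overlap between groups. The 5 glutelins other than GluA2 did overlap between GSK5 and WT, through GSK5 replicate 2 alone. It had 0.41 FPKM, below WT replicates 2 and 3 (0.45 and 0.48). GSK5 replicates 1 and 3, at 0.71 and 0.57, lay above every WT library. RISBZ1 and GluA2, left out of these sums, were the most abundant of their sets in GSK5 and WT. Of single gene models above 0 in any library, 15.1% had every GSK5 library above every WT library. Nothing is read from the contrast between the 2 sums. With RISBZ1 included the regulator sums of GSK5 and WT overlapped, and without it the WT sum was near 0. No test was made of these sums.

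Per unit of summed regulator FPKM, the glutelin sum was 0.909, 0.842 and 0.721 in GSK5, 1.18, 1.31 and 1.04 in ARF4 and 0.486, 0.606 and 1.3 in WT. WT replicate 3 lay among the ARF4 libraries on this ratio; its regulator sum was the lowest of all 9 and its glutelin sum, mostly GluA2, the highest of WT. The WT libraries spread widely on this measure, and on it WT overlapped with both edited groups.

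**Figure D3:**
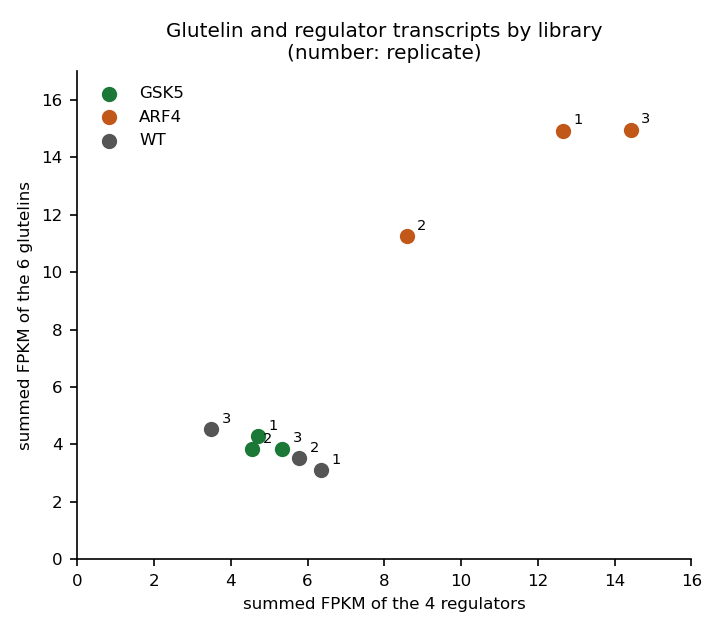
Summed FPKM of the 6 glutelins (y axis) against summed FPKM of the 4 regulators (x axis), 1 point per library, with its replicate number. The 3 ARF4 libraries lie apart, at 11.26 to 14.97 for glutelins and 8.59 to 14.42 for regulators, and GSK5 and WT libraries share the lower corner.

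GSK5-edited grain was first compared with WT. Of the 4 glutelin and regulator genes that were tested none passed limma over all genes tested, and RPBF came nearest of these 4. Of the 10 genes 4 reached the filter of 1 FPKM in 3 libraries and were tested (GluA1, GluA2, RISBZ1 and RPBF), and GluA1 and RPBF reached it through their ARF4 libraries alone. None of these 4 was called, where 2.15% of all 23385 genes tested were called; 1 of the 4, RPBF, had an unadjusted p under 0.05, as did 18.5% of all genes tested. RPBF stood at 0.507 ± 0.162 FPKM in GSK5 and 0.0267 ± 0.0462 in WT (SD, n = 3 each), with a log2 change of 0.55 on the log2(FPKM + 1) scale (SE 0.2, limma adjusted p = 0.202). That scale understates changes below 1 FPKM. In the fit with no filter none of the 10 genes was called, where 615 of 38465 genes were. NAC20 came nearest there (log2 change 0.4, limma adjusted p = 0.122), before RPBF (limma adjusted p = 0.175). With the filter and log2(FPKM + 0.1) RPBF was not called (log2 change 2.28, limma adjusted p = 0.0598). With no filter and log2(FPKM + 0.1), a setting chosen after the values were seen, RPBF was called higher (log2 change 2.28, limma adjusted p = 0.0426) and the other 9 genes were not, where 1.26% of genes were.

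The remaining 3 tested genes had intervals that include 0. The log2 change in GSK5 against WT was 0.19 for GluA1 (95% interval -0.4 to 0.78), 0.03 for GluA2 (-0.35 to 0.42) and -0.28 for RISBZ1 (-0.83 to 0.28). RPBF, NAC20 and NAC26 had every GSK5 library above every WT library, 3 of the 10 genes, where 15.1% of all gene models above 0 in any library did so, and 9.97% of those that fail the filter. WT libraries had a relative depth of 95.7% to 100% and GSK5 libraries 70.7% to 88.5%, as read from low values. WT libraries also had fewer gene models above 0, 29563 to 31417, beside 31474 to 32778 in GSK5 libraries. The cause of the WT zeros was not tested.

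The next comparison set ARF4-edited grain beside WT. GluA1 and the regulator RPBF were higher in ARF4, and RISBZ1 did not pass the test. GluA1 averaged 8.07 ± 2.78 FPKM in ARF4 and 0.327 ± 0.189 in WT (SD, n = 3 each), a log2 change of 2.73 (SE 0.26, 95% interval 2.14 to 3.32, limma adjusted p = 0.00184). RPBF averaged 2.15 ± 0.628 FPKM in ARF4 and 0.0267 ± 0.0462 in WT, a log2 change of 1.6 (SE 0.2, 95% interval 1.15 to 2.05, limma adjusted p = 0.00714). RISBZ1 averaged 9.47 ± 2.44 FPKM in ARF4 and 5.15 ± 1.57 in WT, a log2 change of 0.78 (SE 0.24, limma adjusted p = 0.109). GluA2 had a log2 change of 0.27 with a 95% interval of -0.11 to 0.66 (limma adjusted p = 0.331).

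Of the 4 tested genes 2 were called higher in ARF4, where 1.30% of all genes tested were called higher and 3.32% in either direction. Both had passed the filter through ARF4 alone, so this count does not describe the 10 genes. The GluA1 call held in all 18 alternatives, with limma adjusted p up to 0.0256. The RPBF call was lost when only ARF4 and WT libraries entered the fit (limma adjusted p = 0.0677) and held in the other 17. RISBZ1 passed without ARF4 replicate 2, its lowest ARF4 library (log2 change 0.97, limma adjusted p = 0.0479).

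Taking all 10 genes without a filter, 8 had every ARF4 library above every WT library, where 9.35% of all gene models above 0 did, and 6.67% of those that fail the filter. The 8 were GluA1, GluA3, GluB4, GluC and the 4 regulators. The glutelins among them are close copies that may share fragments, so they do not count as independent cases. After median-of-ratios scaling there were 7 of 10, RISBZ1 being lost, and after quantile normalization 6, with NAC20 lost as well. With no filter limma called GluA1, GluA3 and RPBF higher, where 0.689% of genes were. GluA3 had a log2 change of 0.5 there (SE 0.07, limma adjusted p = 0.0264). With no filter and log2(FPKM + 0.1) GluA1, GluA3, GluB4, GluC and RPBF were called, and GluD1, GluA2, RISBZ1, NAC20 and NAC26 were not; 0.858% of the 38465 genes in that fit were called higher.

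The ARF4 libraries, higher in these transcripts, had a relative depth of 80% to 93.7%, and the WT libraries of 95.7% to 100%. Markers of other tissues were set beside these results. Of the 5 photosynthesis genes 1 fell in ARF4, RBCS, a Rubisco small subunit gene (28.9 ± 8.04 FPKM in ARF4 and 112 ± 48.5 in WT, SD, n = 3 each; log2 change -1.84, limma adjusted p = 0.0385), and 4 were not called. CAB1R, a chlorophyll-binding protein gene of this list, had 403.93, 156.44 and 753.5 FPKM in ARF4 and 13.99, 25.98 and 116.1 in WT (limma adjusted p = 0.0601). The RBCS call was lost in 9 of 18 alternatives. CAB2R and the locus entered as PSBO, the most abundant of the list, averaged 1026 ± 454.9 and 439 ± 131.5 FPKM in ARF4 and 596 ± 176 and 588.5 ± 222.4 in WT. In GSK5 against WT 1 of the 5 fell, RCA, Rubisco activase (109 ± 19.7 FPKM in GSK5 and 198 ± 19 in WT; log2 change -0.87, limma adjusted p = 0.0399), a call lost in 10 of 18 alternatives. The 2 oleosin genes, OLE18 and a locus entered as OLE16, which mark the oil bodies of embryo and aleurone, summed to 5.99, 0.58 and 17.25 FPKM in ARF4 and 2.14, 11.19 and 1.23 in WT. The 11 endosperm starch genes summed to 226.4 to 283.8 FPKM in ARF4 and 199.7 to 386.3 in WT, and none of the 9 tested was called. With no filter the locus entered as BT1 was called higher in ARF4 (0.14, 0.14 and 0.22 FPKM in ARF4 and 0 in each WT library; log2 change 0.22, limma adjusted p = 0.0178). In that fit 0.689% of genes were called higher. BT1 and the locus entered as SSIIIa, a starch synthase, had every ARF4 library above every WT library. That was 2 of the 11, where 9.35% of all gene models above 0 did, and 6.67% of those that fail the filter. The part of these markers in the GluA1 and RPBF differences was not tested.

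The edited groups were also compared directly. GluA1 was lower in GSK5 than in ARF4 and was the single call among the 4 tested genes, where 0.175% of all genes tested were called lower and 0.483% in either direction. It had passed the filter through ARF4 alone, so nothing is read from that count. Its log2 change was -2.54 (SE 0.26, 95% interval -3.13 to -1.95, limma adjusted p = 0.00957). RPBF and RISBZ1 each had a log2 change of -1.05 (95% intervals -1.5 to -0.6 and -1.61 to -0.5), with limma adjusted p of 0.0779 and 0.129. GluA2 had a log2 change of -0.24 (95% interval -0.63 to 0.14). The GluA1 call was lost without ARF4 replicate 1, GSK5 replicate 2 or GSK5 replicate 3, with limma adjusted p of 0.0544 to 0.0562. RPBF was called without ARF4 replicate 2 (limma adjusted p = 0.0209). With no filter limma called GluA1, GluA3 (log2 change -0.47, adjusted p = 0.0456) and RPBF (adjusted p = 0.0452) lower, where 0.185% of genes were. With no filter and log2(FPKM + 0.1) GluA1, GluA3 and GluC were called lower, where 0.203% were.

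Every GSK5 library lay below every ARF4 library for 6 of the 10 genes (GluA1, GluA3, GluB4, GluC, RISBZ1 and RPBF), where 6.27% of all gene models above 0 did, and 3.56% of those that fail the filter. Here too the glutelins may share fragments and do not count as independent cases. NAC20 had the higher mean in GSK5, 0.373 ± 0.195 FPKM in GSK5 and 0.177 ± 0.0551 in ARF4, with overlapping libraries. The comparisons against WT share the WT libraries, so their values for a gene are not independent of each other.

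**Figure D4:**
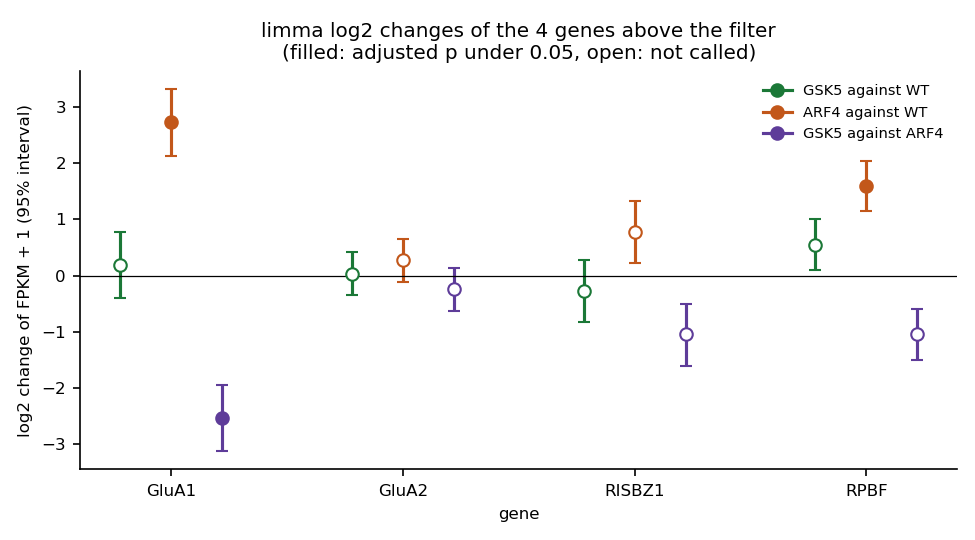
Log2 changes on the log2(FPKM + 1) scale (y axis) with 95% intervals for the 4 tested genes (x axis) in the 3 comparisons; filled points have a limma adjusted p under 0.05. GluA1 lies at 2.73 where ARF4 is set against WT, at -2.54 where GSK5 is set against ARF4, and the GluA2 intervals include 0 in all 3 comparisons.

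Other storage genes were described as lists drawn up from general knowledge of rice, with names given where RefSeq holds the name on the same chromosome and otherwise marked as entered. Of 6 other glutelin genes none reached the filter, and GluB6 as entered was listed at 0 throughout. The remaining 5 had every ARF4 library above every WT and every GSK5 library, where 9.35% and 6.27% of all gene models above 0 did. All 5 were below 1 FPKM. As close copies they may share fragments, so they do not count as independent cases. The locus entered as GluB1a had 0.04, 0 and 0 FPKM in GSK5, 0.49, 0.5 and 0.53 in ARF4 and 0, 0.02 and 0 in WT. The locus entered as GluB1b had 0, 0.02 and 0 FPKM in GSK5 and 0.47, 0.57 and 0.39 in ARF4, and was listed at 0 in WT. With no filter limma called 3 of the 5 higher in ARF4 against WT, the loci entered as GluB1a and GluB1b and GluB2, where 0.689% of genes were, and the first 2 of these lower in GSK5 against ARF4, where 0.185% were. None was called in GSK5 against WT.

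Prolamins are the alcohol-soluble storage proteins that stay in bodies of the endoplasmic reticulum. Of the 21 loci found, 8 were at 0 in all 9 libraries and 2 reached the filter. The locus LOC_Os03g55730, entered as a 10 kDa prolamin, stood apart from the rest at 31.6 ± 1.22 FPKM in GSK5, 28.5 ± 1.97 in ARF4 and 27.7 ± 4.99 in WT (SD, n = 3 each). It gave a log2 change of 0.2 in GSK5 against WT and 0.05 in ARF4 against WT, and neither was called. The other tested locus, LOC_Os11g33000, had 0.69, 1.01 and 0 FPKM in GSK5, 0.73, 1.73 and 1.57 in ARF4 and 0, 0.85 and 0.22 in WT, and was not called. Of the 13 loci above 0 in any library 7 had every ARF4 library above every WT library, where 9.35% of all gene models above 0 did, and 1 had every GSK5 library above every WT library, where 15.1% did. With no filter 1 of the 13, LOC_Os07g10580, was called higher in ARF4 against WT, where 0.689% of genes were, and lower in GSK5 against ARF4, where 0.185% were.

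Among 11 globulin and seed allergen loci 3 were tested. GLB1, the alpha-globulin of the endosperm, had 1.14, 0.76 and 0.45 FPKM in GSK5, 1.18, 2.34 and 2.33 in ARF4 and 0, 0.4 and 0.46 in WT. It was called higher in ARF4 against WT (log2 change 1.19, limma adjusted p = 0.0478), where 1.30% of all genes tested were, and in no other comparison. Its call was lost in 16 of 18 alternatives, with limma adjusted p up to 0.162. The locus LOC_Os03g57960, entered as a cupin globulin, had 33.63 FPKM in WT replicate 1 and at most 5.97 in any other library. The remaining tested locus, LOC_Os07g11510, averaged 1.7 ± 0.133 FPKM in GSK5, 2.13 ± 0.863 in ARF4 and 1.03 ± 0.752 in WT.

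**Figure D5:**
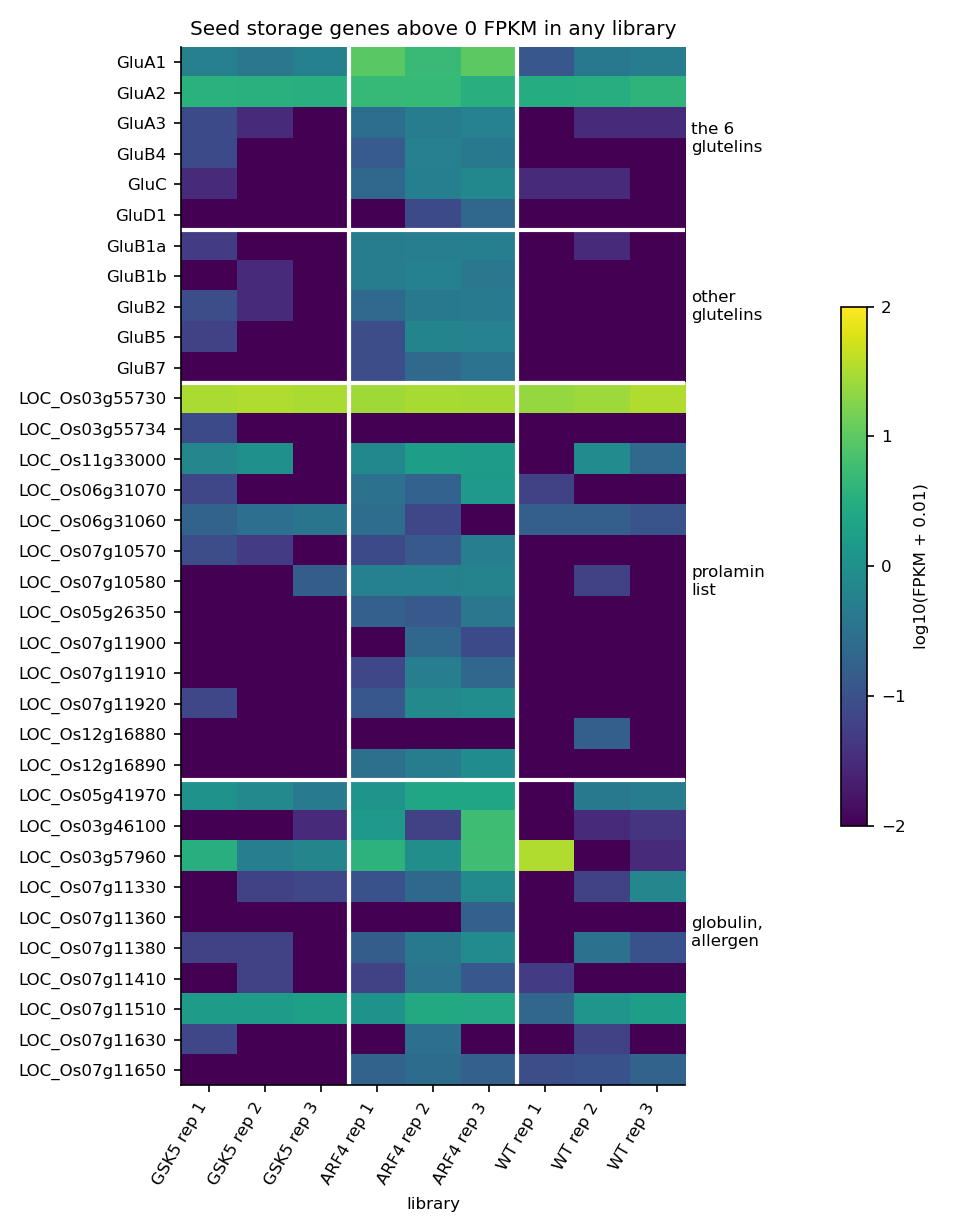
Level of each storage gene above 0 in any library, as log10(FPKM + 0.01) by colour, with genes in rows and the 9 libraries in columns. GluA2 (2.96 to 4.8 FPKM) and LOC_Os03g55730 are similar in all libraries, and GluA3, GluB4, GluC and GluD1 are at most 0.07 FPKM outside the ARF4 libraries.

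Most other endosperm regulators had higher FPKM than RPBF, NAC20 and NAC26. Of 14 listed 11 were tested, with a median log2 change of -0.23 in GSK5 against WT and -0.29 in ARF4 against WT, beside 0.11 and 0.05 over all genes tested. The most abundant were the MADS-box genes MADS6, at 45.9 ± 3.16 FPKM in GSK5, 75.6 ± 47.1 in ARF4 and 70 ± 16.1 in WT, and MADS29, at 51.2 ± 2.83 in GSK5, 47.7 ± 24 in ARF4 and 68.9 ± 8.66 in WT (SD, n = 3 each). The single call was the locus entered as NAC129, a NAC factor gene, which fell in ARF4 (0.1, 0.11 and 0.86 FPKM in ARF4 and 4.92, 1.92 and 1.98 in WT; log2 change -1.5, limma adjusted p = 0.0475), and it was lost in 15 of 18 alternatives. The locus entered as NF-YC12, an endosperm transcription factor gene, did not reach the filter and had 1.21, 0.49 and 0.98 FPKM in GSK5 and 0, 0.11 and 0.23 in ARF4, and was listed at 0 in WT. With no filter it was the one gene of this list called, higher in GSK5 against WT (log2 change 0.9, limma adjusted p = 0.0263). In that fit 470 of 38465 genes were called higher. The NAC129 call was made with the filter, where 3.32% of all genes tested were called in ARF4 against WT. RISBZ5, a bZIP relative of RISBZ1, had 0.81, 0.97 and 0.86 FPKM in GSK5, 4.52, 9.94 and 1.29 in ARF4 and 0.82, 1.13 and 1.77 in WT, and was not called.

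The machinery that folds, sorts and cleaves glutelin precursors was present in every library. All 9 listed genes were above 1 FPKM throughout and none was called in any of the 3 comparisons, where 2.15%, 3.32% and 0.483% of all genes tested were. An unadjusted p under 0.05 was found for 1 of them in GSK5 against WT, for 3 when ARF4 was set against WT, and for 0 between the edited groups, where 18.5%, 24.9% and 13.8% of all genes tested had one. PDIL1-1, a protein disulfide isomerase that acts on glutelin precursors, stood at 290 ± 11.6 FPKM in GSK5, 295 ± 21.5 in ARF4 and 292 ± 31.3 in WT, and the locus entered as CNX, a calnexin chaperone, at 103 ± 10.7 in GSK5, 122 ± 15.8 in ARF4 and 85.2 ± 22.8 in WT (SD, n = 3 each). VPE1 and BiP1 were picked after their values were seen. VPE1, the vacuolar enzyme that cleaves glutelin precursors, had a log2 change of -0.02 in GSK5 against WT (95% interval -0.39 to 0.35) and 0.16 in ARF4 against WT (-0.21 to 0.53). BiP1, the lumenal chaperone, had 59.93, 63.45 and 64.66 FPKM in GSK5, 85.29, 91.55 and 75.23 in ARF4 and 26.74, 44.13 and 81.43 in WT, with a log2 change of 0.85 in ARF4 against WT (limma adjusted p = 0.165).

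Of the starch genes, which RISBZ1, NAC20 and NAC26 are also known to activate, 9 were tested, and the 11 in the table summed to 391.9 to 399.2 FPKM in GSK5. The locus entered as AGPL2, a large subunit of ADP-glucose pyrophosphorylase, was called higher in GSK5 against WT and against ARF4, at 81.2 ± 13.2 FPKM in GSK5, 28.4 ± 4.01 in ARF4 and 24.8 ± 1.99 in WT, and the other 8 were not called in any comparison. Its limma adjusted p was 0.00169 in GSK5 against WT (log2 change 1.66) and 0.0102 in GSK5 against ARF4 (1.48). Over all genes tested 2.15% and 0.483% were called in these comparisons. Of RISBZ1, NAC20 and NAC26, NAC20 had the same order of means as AGPL2, at 0.373 FPKM in GSK5, 0.177 in ARF4 and 0.0367 in WT. Its GSK5 and ARF4 libraries overlapped. That order was not particular to NAC20. GAMYB (15.2, 12 and 10.7 FPKM in GSK5, ARF4 and WT) and NF-YB1 (0.29, 0.123 and 0.0533) had it too. So did the locus entered as NF-YC12 (0.893, 0.113 and 0). RISBZ1 and NAC26 had their highest mean in ARF4. RISBZ1 was lowest in GSK5 by its mean, though GSK5 and WT overlapped. A link between these regulators and AGPL2 was not tested. With no filter BT1 was called lower in GSK5 against ARF4 (limma adjusted p = 0.0311), where 0.185% of genes were. GBSSI had every GSK5 library above every ARF4 and WT library (log2 change in GSK5 against WT 1.24, limma adjusted p = 0.1). Above every WT library were 2 of the 11, GBSSI and AGPL2, where 15.1% of all gene models above 0 were. Above every ARF4 library were 5 of the 11, with SSI and the loci entered as BEI and BEIIb besides. The share over all gene models is not given for that direction, so nothing is read from this count. Below every ARF4 library were 2, SSIIIa and BT1, where 6.27% were.

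Likeness of pattern was measured as Pearson's r of log2(FPKM + 1) over the 9 libraries, for the 3 of the 10 genes with a mean of at least 1 FPKM, against 41 other listed genes of that level. GluA1 was most like CAB1R (r = 0.85) and next RISBZ1 (0.84). RISBZ1 was most like GluA1 and next CAB2R, another chlorophyll-binding protein gene (r = 0.79). GluA2 was most like RISBZ5 (r = 0.89). Within groups, as deviations from the group means, r was 0.71 for GluA1 with CAB1R, 0.39 for GluA1 with RISBZ1 and 0.83 for GluA2 with RISBZ5. The libraries fall into the 3 groups, and these values are descriptions.

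Some libraries stood apart over all genes. By mean correlation WT replicate 3 (0.941 with GSK5 and 0.91 with its own group) and ARF4 replicate 3 (0.93 with GSK5 and 0.901 with its own group) lay nearer to GSK5 than to their own groups. GluA1 in ARF4 against WT was called when either was left out. Summed FPKM lay between 585414 and 626390 per library, and 20840 to 23172 gene models reached 1 FPKM.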

How the data were processed

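The deposited table holds FPKM for 9 libraries, computed by the authors and rounded to 2 decimals. The submitters' processing notes list Bowtie 0.12.2 and a mouse genome build, mm8, which cannot belong to the rice loci of the table. The rice build, the annotation and the program behind the FPKM were not given in the sources used here. Sample titles gave each library its group and replicate number. No count model was applied to FPKM. Total depth is not known. Relative depth was read from the spacing of values between 0.1 and 0.5 FPKM in all 36 library pairs (residual 0.011 log2), with a ratio of 1.41 between the extremes.

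Gene models with at least 1 FPKM in at least 3 libraries (23385) were tested, two-sided, on log2(FPKM + 1) in limma 3.58.1 (R 4.3.3), using 1 mean per group, a trended prior and a spread pooled over 9 libraries. P-values were adjusted by Benjamini and Hochberg's method within each comparison across these genes, and a gene was called under 0.05. An exact test of 3 against 3 libraries cannot go below p = 0.1 and was not used. Alternatives covered pseudocounts, filters, scalings, fits of 2 groups, a replicate block and leaving out each library. The joint change of filter and pseudocount, and the scalings and left-out libraries for counts of genes without overlap, were added after seeing the data. Same-numbered libraries were checked for shared deviations.

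All 10 genes are named, and from each list the 2 most abundant genes and those called; CAB1R, CAB2R and RISBZ5 come from the likeness rule, and any other gene named was picked after its values were seen. Of 91 listed loci 89 are in the table, and 33 of the 91 names were found in RefSeq (assembly ASM3414082v1, names only) on the identifier's chromosome. The genes, lists and tests were chosen with earlier results of these data known. The plots were made in matplotlib 3.10.9 under Python 3.11.15, with pandas 2.3.3 and numpy 2.4.6 used for the tables.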

Additional observations from a re-analysis of the deposited data

How the results depend on the processing

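The replicate numbers did not pair the libraries: same-numbered libraries deviated from their group means with r of -0.35 to 0.08 in 9 pairs, none over 0.1. With the replicate block limma called 239 genes in GSK5 against WT (502 without it), 219 in ARF4 against WT (776) and 30 between GSK5 and ARF4 (113); it changed no call among the 10 genes. The fit of only the 2 groups called 82 genes in ARF4 against WT, 1 of them (GluA1) among the 10 in place of 2, and 205 in GSK5 against ARF4. In GSK5 against ARF4, log2(FPKM + 0.1) called 69 genes, no filter 220 and no filter with log2(FPKM + 0.1) 202. Among the 10 genes that last setting called 1, 5 and 3 in the 3 comparisons, in place of 0, 2 and 1, and no filter 3 in GSK5 against ARF4; 10 genes were then tested in place of 4.

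Leaving out 1 library gave 135 to 2719 genes in GSK5 against WT, 156 to 3498 in ARF4 against WT and 17 to 504 in GSK5 against ARF4, with 2719 and 3498 both reached without WT replicate 3. The count moved by over 1.5 times without every library, except ARF4 replicates 2 and 3 in the first comparison and WT replicate 3 in the third. Among the 10 genes it gave 0 in the first comparison, 2 to 3 in the second and 0 to 2 in the third. In GSK5 against WT the sign of uncalled changes turned for GluA1 under quantile normalization (-0.27), and for GluA2 under median-of-ratios scaling (-0.05), quantile normalization (-0.17) and without WT replicate 1 or 2 (-0.03 and -0.01; 0.14 without WT replicate 3). Genes with every GSK5 library above every WT library numbered 2 of 10 under quantile normalization, in place of 3. Quantile normalization moved the median change of all genes in GSK5 against WT by -0.12 (log2), and 234 of 416 calls were then higher, in place of 338 of 502. Between GSK5 and ARF4, 44 of 87 calls were higher under median-of-ratios scaling and 47 of 94 under quantile normalization, in place of 72 of 113. The cause of these shifts was not tested. Values near 0.02 FPKM rest on very few fragments.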
